A study of Mus musculus with 7 samples.

Results

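Genomic regions that held RARα and RXRα, but no RARβ, were examined in mouse liver. RARα and RARβ are nuclear receptors for retinoic acid (RA), the active form of vitamin A, and RXRα is the receptor with which they pair on DNA. Such pairs typically recognize 2 copies of a short hexamer, called a half-site, in the same orientation with a few bases between them. In liver, RXRα also pairs with the receptors for fatty acids, bile acids, oxysterols and xenobiotics, so an RXRα site need not be a site of an RAR. The members were chosen by the presence of peaks alone. Overlapping or touching peaks of all 6 peak lists, 1 list per receptor and diet, were merged into 87787 regions, and a region was a member when it held a peak in the 4 lists of RARα and RXRα and in neither RARβ list. This gave 2432 regions, which was 2.77% of all regions. The presence of peaks in the 6 lists is therefore not a finding, and the scores of those peaks are given as a description.

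The livers came from male wild-type C57BL/6 mice at the age of 3 months that were fed normal chow or chow with RA for 1 day, as labelled; the study's methods describe a longer RA feeding. Chromatin immunoprecipitation with sequencing (ChIP-seq) gave 1 library per receptor and diet, and whether animals were pooled is not given in the sources used here. With 1 library per group, the differences between diets or receptors below have no replicate check and no test. Whole liver was used, so a peak bound in few cells and a peak bound weakly in many cannot be told apart.

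Among cell type markers, RXRα peaks lay within 10 kb of the start of 8 of 8 hepatocyte marker genes under both diets. Such peaks were near 1 of 6 stellate cell markers, 1 of 5 Kupffer cell markers and 1 of 4 cholangiocyte markers under each diet, and near 2 of 5 endothelial markers under the control diet and 3 of 5 under RA. The RARα lists did not follow this order. RARα peaks were near 3 of 8 hepatocyte markers under the control diet and 5 of 8 under RA, but near 4 of 5 and 5 of 5 endothelial markers. They were near 2 of 6 stellate and 1 of 4 cholangiocyte markers under each diet, and near 0 of 5 Kupffer markers. In the RARβ lists, the share was highest for hepatocyte markers, as in the RXRα lists, with 3 of 8 and 6 of 8. RARβ peaks were near 0 and 2 of 5 endothelial markers, 0 and 1 of 4 cholangiocyte markers, and 0 stellate or Kupffer markers. Among all these markers, Ttr, which encodes the thyroid hormone and retinol carrier transthyretin, was the only one with a member within 10 kb. RXRα peaks also lay near 20 of 20 splicing and mRNA processing genes under the control diet and 19 under RA. A full count is thus not particular to hepatocyte markers. The share over all genes is not given here, so the marker counts do not check the tissue by themselves. Binding near a gene is not expression, and the markers were used for orientation only.

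The letters of some member regions are shown here because a receptor pair reads sequence. For 7 genes, the 250 bases before an annotated start are printed, and in each case the start and these bases lay inside a member. Lmna and Echdc1 had the highest-ranked member promoters among the windows, C9, F5 and Ugt2b5 are liver genes of the gene lists below, Rxra is the gene of RXRα itself, and Slc7a7 had the only member window in which direct repeats were found. Echdc1, shown at the outer of its starts, and Slc7a7 were chosen after their values were seen. The sequences are from RefSeq on GRCm38.p6 (mm10), read 5′ to 3′ along the gene. Capitals mark the half-site AGGTCA, its variant GGGTCA, the further variant AGTTCA and the last variant GGTTCA, and also the GC box GGGCGG and the ETS-type motif CCGGAA, on either strand. The C9 window held none of them.

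Lmna, chr3:88503353-88503602, strand -: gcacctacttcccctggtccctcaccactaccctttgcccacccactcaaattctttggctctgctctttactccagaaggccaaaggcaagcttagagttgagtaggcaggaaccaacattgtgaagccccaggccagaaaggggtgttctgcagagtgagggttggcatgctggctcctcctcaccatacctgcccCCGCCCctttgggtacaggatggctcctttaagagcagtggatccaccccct

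Echdc1, chr10:29312916-29313165, strand +: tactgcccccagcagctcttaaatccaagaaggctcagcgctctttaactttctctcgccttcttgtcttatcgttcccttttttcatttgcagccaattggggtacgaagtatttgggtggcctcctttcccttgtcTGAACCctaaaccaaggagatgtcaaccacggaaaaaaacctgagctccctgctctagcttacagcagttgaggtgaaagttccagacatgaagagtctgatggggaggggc

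C9, chr15:6445096-6445345, strand +: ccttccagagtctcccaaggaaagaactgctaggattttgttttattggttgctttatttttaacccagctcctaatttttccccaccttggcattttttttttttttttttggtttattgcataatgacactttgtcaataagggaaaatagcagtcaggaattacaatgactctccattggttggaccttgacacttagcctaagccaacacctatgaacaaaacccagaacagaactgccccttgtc

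F5, chr1:164151585-164151834, strand +: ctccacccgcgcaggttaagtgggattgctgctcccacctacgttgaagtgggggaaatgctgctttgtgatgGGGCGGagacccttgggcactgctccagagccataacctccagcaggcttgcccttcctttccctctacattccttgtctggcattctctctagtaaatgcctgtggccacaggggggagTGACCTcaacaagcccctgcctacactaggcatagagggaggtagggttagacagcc

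Ugt2b5, chr5:87140341-87140590, strand -: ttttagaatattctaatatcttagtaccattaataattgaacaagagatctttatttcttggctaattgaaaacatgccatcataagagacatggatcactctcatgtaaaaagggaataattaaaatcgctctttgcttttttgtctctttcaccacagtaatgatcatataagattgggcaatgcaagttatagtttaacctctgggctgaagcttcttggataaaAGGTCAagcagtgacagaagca

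Rxra, chr2:27676951-27677200, strand +: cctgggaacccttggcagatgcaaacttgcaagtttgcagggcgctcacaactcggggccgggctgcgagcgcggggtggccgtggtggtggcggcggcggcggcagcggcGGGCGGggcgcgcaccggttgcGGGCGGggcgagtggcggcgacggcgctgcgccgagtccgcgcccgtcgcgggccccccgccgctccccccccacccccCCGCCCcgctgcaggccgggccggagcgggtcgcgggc

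Slc7a7, chr14:54417945-54418194, strand -: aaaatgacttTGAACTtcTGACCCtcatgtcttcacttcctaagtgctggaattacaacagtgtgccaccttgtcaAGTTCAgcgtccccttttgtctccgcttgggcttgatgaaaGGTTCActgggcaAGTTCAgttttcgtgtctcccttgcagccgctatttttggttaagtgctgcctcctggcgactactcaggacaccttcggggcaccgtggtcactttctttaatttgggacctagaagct

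The promoters differed in base content. In the Rxra window, 81.2% of bases were G or C with 40 CG dinucleotides, whereas the C9 window had 38.8% and no CG. The Ugt2b5 window had 33.2% with 1 CG, and the Lmna window 56.4% with 1 CG. The Slc7a7 window held 5 half-sites, and these formed a direct repeat with 2 bases between the copies (DR2) and another with 7 bases (DR7). Slc7a7 encodes a cationic amino acid transporter.

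The member regions were compared with the other regions of the same 4 lists. In total, 17410 regions were called for RARα and RXRα under both diets. Of these, 49.2% (Wilson 95% interval 48.5 to 49.9) held RARβ under both diets, 33.7% (33.0 to 34.4) held it under RA only, 3.11% (2.87 to 3.38) held it under the control diet only, and the members made up the remaining 14.0% (13.5 to 14.5). This last share was 23.0% with peaks below a score of 100 dropped from all lists and 6.39% with lists of equal length. The members were thus the third in size of these 4 groups. These intervals and those below cover counting error only.

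The peak score is the caller's own value, a multiple of the negative log10 of the p-value, with a floor at 50, and it is not scaled between libraries. The members' RARα peaks had a median score of 105 (quartiles 69.2 and 172) under the control diet and of 136 (83.4 and 236) under RA. Their RXRα peaks had medians of 133 (81.4 and 231) and 125 (80.6 and 216). Within their own lists, these medians stood at percentiles 46.6 and 54.6 for RARα and 47.5 and 43.8 for RXRα, where the percentile is the share of the list's peaks at or below the score, with ties averaged. By these medians, the members were middle-ranked peaks of both receptors. Single scores ran from 50.03 to 839 for RARα and from 50.04 to 1633 for RXRα, so the members also held strong peaks.

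The regions that held RARβ under RA only had a near-identical RARα median, with 99.6 under the control diet and 138 under RA. Their RXRα medians were higher, at 323 and 332. Regions with RARβ under both diets had higher medians for both receptors, with 236 and 253 for RARα and 229 and 254 for RXRα. Thus, members and regions with RARβ under RA only lay close together on the RARα score and apart on the RXRα score.

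**Figure D1:**
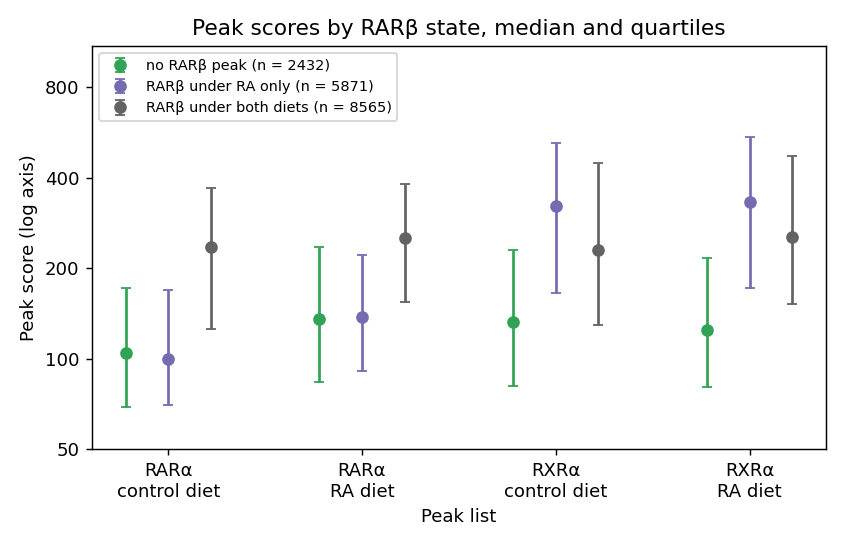
Peak score (log axis) in the 2 RARα and 2 RXRα lists for regions without RARβ, with RARβ under RA only and with RARβ under both diets. Points are medians and bars the quartiles over regions; the members' RXRα medians of 133 and 125 lie below the 323 and 332 of regions with RARβ under RA only, while their RARα medians are alike.

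The share of regions without RARβ was lower at higher scores. When the 17410 regions were divided into 10 equal groups by RXRα score under RA, 39.1% (36.8 to 41.4) of the lowest group and 0.862% (0.523 to 1.42) of the highest were members. By RXRα score under the control diet, the shares were 32.1% (29.9 to 34.3) and 1.38% (0.928 to 2.04). By RARα score they ran from 23.3% (21.3 to 25.3) to 1.61% (1.12 to 2.31) under the control diet. For RARα under RA, the shares ran from 25.8% (23.8 to 27.96) to 6.43% (5.37 to 7.68). In that highest group, with RARα scores of at least 455 under RA, 112 of 1741 regions had no RARβ peak.

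**Figure D2:**
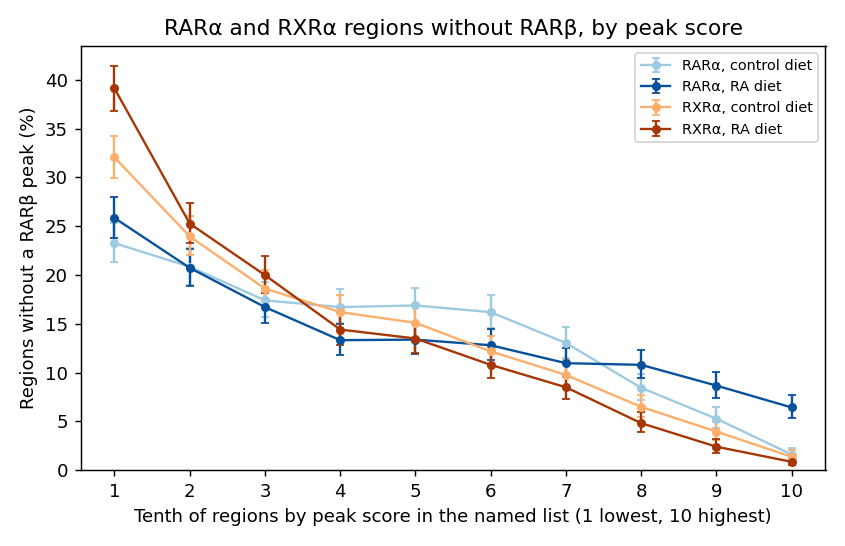
Share of stable RARα and RXRα regions that had no RARβ peak, in 10 equal groups by the score in each of the 4 lists, with Wilson 95% intervals. The share is lower in the highest than in the lowest group of all 4 lists, from 39.1% to 0.862% for RXRα under RA and from 25.8% to 6.43% for RARα under RA.

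The rule depends on the caller's threshold. The lowest of a member's 4 scores was under 60 in 783 members (32.2%) and at least 100 in 406 (16.7%). Just outside the rule, 2589 regions lacked only the RARα control peak, 1051 lacked only the RARα peak under RA, 1068 only the RXRα control peak and 1120 only the RXRα peak under RA. A further 938 regions of all 4 lists were kept out by RARβ peaks with scores under 60. With peaks below a score of 100 dropped from all lists, 1781 regions met the rule, and 406 of these overlapped a member. The others lay in regions where a RARβ peak had been called before the lists were cut. With each list shortened to the 14968 highest-scoring peaks, 116 regions met the rule, and 30 of these overlapped a member.

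The 5 members with the lowest score percentile in any list show this edge. They included a region 19.7 kb inside Aplp2, a region 19.6 kb before Hes1, a region inside Dcdc2c and a region inside Mboat4. At Hes1, a Notch target gene, the RARα scores (control diet first, then RA, here and below) were 50.03 and 91.6, and the RXRα scores were 198 and 319. In each of the 5 regions, 1 score was close to the floor of 50, while the other scores were higher.

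Overlap of the receptors is nearly fixed by the merging of peaks and is given as a description. The midpoints of the best peaks of the 2 receptors were a median of 72.5 bp apart under the control diet and 66.5 bp apart under RA. In 94.2% (93.2 to 95.1) of the members, a RARα and a RXRα peak overlapped by at least 25% of each width under both diets, as they did in 95.9% of regions with RARβ under RA only and 97.2% of those with RARβ under both diets. Each of the 4 lists had exactly 1 peak in 92.2% of the members, and the median member was 714 bp wide, against 980 bp for regions with RARβ under RA only and 1184 bp for regions with RARβ under both diets. The nearest RARβ peak of either diet was a median of 10.3 kb from the edge of a member. It lay within 1 kb in 198 members (8.14%) and within 10 kb in 49.4%, close to the 7.86% and 45.4% of all regions. Other regions were also close by. A region of RXRα alone lay within 10 kb of 25.1% of the members and a region of all 6 lists within 10 kb of 13.1%. The members themselves rarely stood together, and 114 (4.69%) formed 57 pairs within 10 kb.

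Position was not used by the rule. Of the members, 11.9% (10.7 to 13.3) had their midpoint within 1 kb of a protein-coding gene start and 32.2% (30.4 to 34.1) within 10 kb. Over all regions, the shares were 12.1% and 31.5%, close to those of the members. With peaks below a score of 100 dropped from all lists, the shares were 31.2% and 48.0% of the 1781 regions that then met the rule. Of these, 406 overlapped a member, so the shares are mostly those of other regions. Which regions met the rule, and their position, thus depended on the threshold. The members of the full lists differed from the regions with RARβ. For regions with RARβ under both diets, the share was 54.8% (53.8 to 55.9) within 1 kb and 68.0% (67.0 to 69.0) within 10 kb. For regions with RARβ under RA only, it was 19.1% (18.2 to 20.2) and 36.6% (35.4 to 37.8). Regions with RXRα under both diets and no RAR peak were rarer near starts, with 2.14% (1.92 to 2.38) within 1 kb and 24.2% (23.5 to 24.9) within 10 kb.

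The remaining members were distal. The median distance to a start was 22.6 kb, against 0.535 kb for regions with RARβ under both diets, 19.6 kb for regions with RARβ under RA only and 23.9 kb over all regions. Of all members, 32.4% lay beyond 10 kb from a start and inside a gene, 35.3% lay beyond 10 kb and outside every protein-coding gene, and 15.1% lay over 100 kb from a start. Over all regions, these shares were 35.4%, 33.2% and 18.3%. Seen from the position, 4.62% (4.13 to 5.17) of the stable RARα and RXRα regions within 1 kb of a start had no RARβ, against 17.9% (16.6 to 19.4) of those between 1 and 10 kb and 19.7% (18.8 to 20.5) of those farther away. In these lists, RARβ was thus missing more often away from starts than at starts. Regions are not replicates, so the intervals do not show whether this would hold in other libraries.

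Since RARβ state also moved with the score, position was compared among regions of like score, an analysis added after the values were seen. In the highest of 5 equal groups by RARα control score, 13.3% (8.38 to 20.6) of 120 members lay within 1 kb of a start, against 53.7% (49.1 to 58.3) of regions with RARβ under RA only and 75% (73.4 to 76.6) of regions with RARβ under both diets. In the lowest group, the shares were 6.64% (5.09 to 8.63), 4.64% (3.76 to 5.72) and 9.18% (7.38 to 11.4), with neighbouring intervals that overlapped. By RXRα control score, 14.6% (12.5 to 16.9) of 975 members in the lowest group lay within 1 kb of a start, against 46.5% (43.06 to 50.003) and 76.5% (74.3 to 78.5). In the highest group, the shares were 3.23% (1.10 to 9.06) of 93 members, 5.17% (4.18 to 6.39) and 16.8% (15.2 to 18.6). In the highest RARα group, regions without RARβ were thus mostly over 1 kb from a start, whereas those with RARβ were mostly within it.

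**Figure D3:**
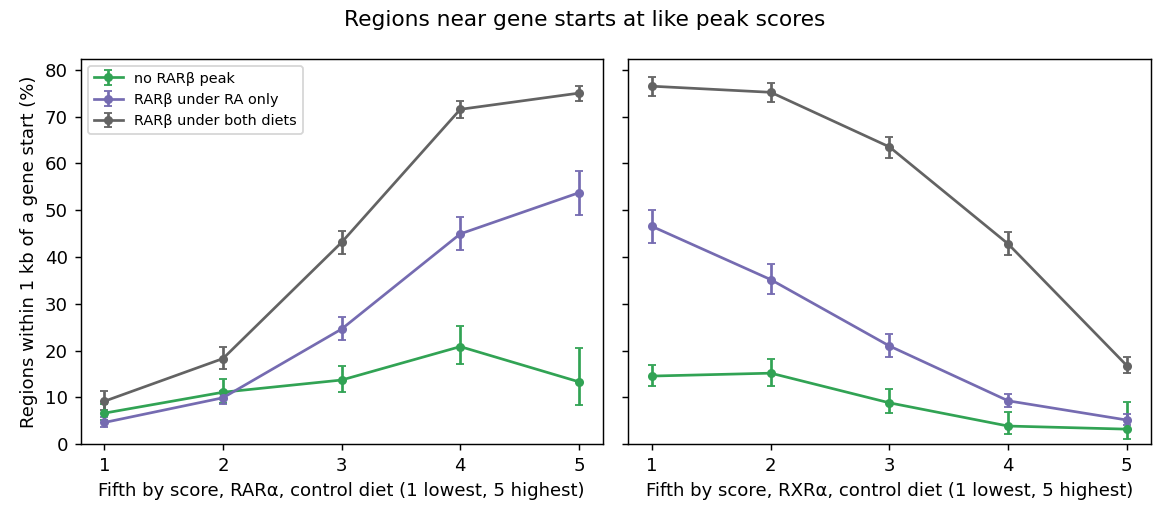
Share of regions within 1 kb of a protein-coding gene start, in 5 equal groups by RARα control score (left) or RXRα control score (right), by RARβ state, with Wilson 95% intervals. In the highest RARα group the share is 13.3% without RARβ and 75% with RARβ under both diets.

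The members closest to the top of all 4 lists were ranked by their lowest percentile. The highest ranked lay 45.8 kb before Stard4, the gene of a cholesterol transfer protein (chromosome 18, 33259350 to 33260065). Its RARα scores were 388 and 499, and its RXRα scores were 572 and 551. All 4 values were at percentile 91.6 or above in their lists, and the nearest RARβ peak was 44.7 kb away.

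A region 6.70 kb before Tnrc6b, which encodes a scaffold protein of microRNA silencing, had RARα scores of 423 and 508 and RXRα scores of 556 and 531 (chromosome 15, 80704317 to 80704917). A region 163 kb from the start of Slc30a8, a zinc transporter gene, had RARα scores of 532 and 829 and RXRα scores of 560 and 492 (chromosome 15, 52458590 to 52459339). The value of 829 was the highest RARα score among the 15 top-ranked members, and the nearest RARβ peak was 79.8 kb away. Both regions lay outside every protein-coding gene.

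Before Ece1, the gene of endothelin-converting enzyme, a region had RARα scores of 322 and 480 and RXRα scores of 505 and 437 (chromosome 4, 137844579 to 137845117). Inside Rbfox2, which encodes a splicing regulator, a region had RARα scores of 298 and 532 and RXRα scores of 551 and 561 (chromosome 15, 77219931 to 77220708). In both, RARα was scored higher under RA, and the RARβ peak nearest to each was 6.16 and 6.03 kb away. A region 9.03 kb before Ccdc177 held the highest RXRα control score of the 15, 911, against 415 under RA, with RARα scores of 331 and 362 (chromosome 12, 80769355 to 80770133).

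Of all members, 11.9% lay within 1 kb of a start, and of all regions 12.1%. At Hbegf, which encodes a heparin-binding ligand of the EGF receptor, the member spanned the gene start and was the only one of the 15 within 1 kb (chromosome 18, 36515418 to 36516391). Its RARα scores were 422 and 417 and its RXRα scores were 392 and 553. Inside Lmna, the lamin A/C gene, a member lay 6.98 kb from the outermost start, over the inner start whose sequence is printed above (chromosome 3, 88502196 to 88503710). Its RARα scores were 299 and 281, its RXRα scores 396 and 411, and a RARβ peak lay 5.81 kb away.

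For the other members of the top 15, the nearest starts were those of Arid5b, Zc3h8, Fabp5, Ly86, Ror1 and Tmem247, the last for a pair of members. The Ly86 start was 122.6 kb away from a member outside every protein-coding gene, and the Ror1 start 119 kb away from a member inside Ror1. Fabp5 encodes a fatty acid binding protein, and Ror1 a receptor tyrosine kinase-like protein of Wnt signalling. The member 2.99 kb before Fabp5 had RARα scores of 212 and 364 and RXRα scores of 449 and 296, and a RARβ peak stood 1.15 kb from it. The pair at Tmem247 had RARα scores of 275 and 393 inside the gene and of 211 and 333 before it, with RXRα scores of 395 and 408, and of 360 and 317. RARα scored higher under RA in 13 of the 15 members, and RXRα in 6, where 67.9% and 53.2% of all regions called under both diets did so and the scores are unscaled between libraries. By position, 8 of the 15 lay within 10 kb of a start and 3 lay over 100 kb away. These shares were 32.2% and 15.1% over all members and 31.5% and 18.3% over all regions.

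**Figure D4:**
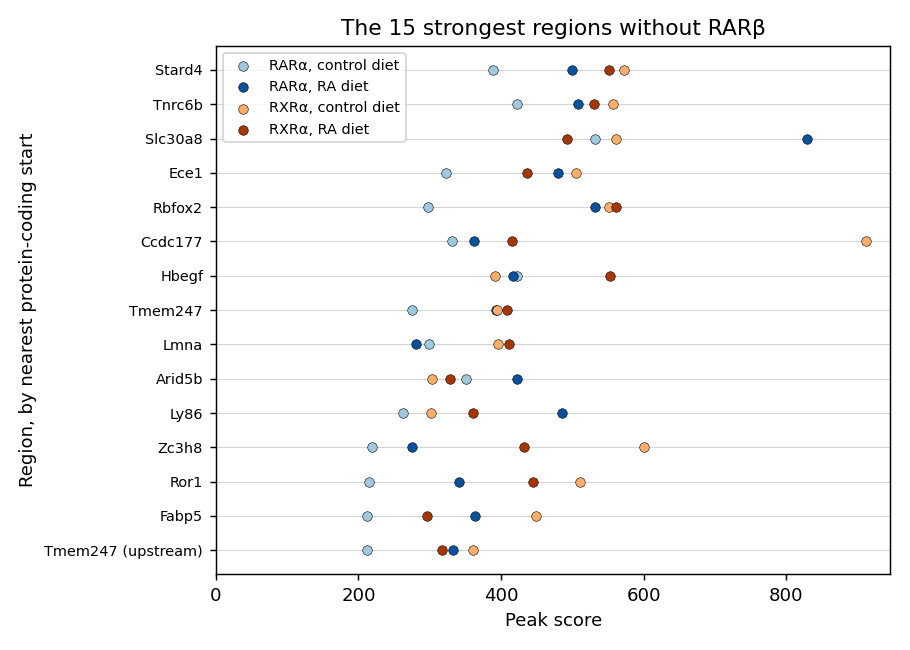
Peak scores in the 4 RARα and RXRα lists of the 15 members whose lowest percentile over these lists was highest, named by the nearest protein-coding start. RARα scores span 211 to 829 and RXRα scores 296 to 911, and no RARβ peak was called in any of them.

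Between the diets, the scores of the members were higher under RA for RARα and similar for RXRα. The median ratio of the score under RA to that under the control diet was 1.29 for RARα and 0.973 for RXRα, and it was above 1 in 71.6% of the members for RARα and in 47.0% for RXRα. Over all regions called for the receptor under both diets, the medians were 1.21 and 1.03, and the ratio was above 1 in 67.9% and 53.2%. By percentile, RARα was higher under RA by at least 25 points in 443 members (18.2%, against 16.3% of all 29701 such regions) and lower by as much in 166 (6.83%, against 5.62%). For RXRα, 179 members (7.36%, against 8.29% of all 46703 such regions) were higher by at least 25 points, and 300 (12.3%, against 9.25%) were lower. The members' shares for RARα thus lay near those of all stable regions, and both receptors were required by the rule under both diets.

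At the gene level, 946 of 21536 protein-coding genes (4.39%) had a member within 10 kb of the start, and 307 (1.43%) had one within 1 kb. Of the 946, 622 (65.8%) also had a RARβ peak within 10 kb, outside the member, and 292 (30.9%) had a region of all 6 lists there. The remaining 324 genes had a member and no RARβ peak, which was 1.5% of all genes. Over all genes, with or without a member, 42.8% had no RARβ peak within 10 kb.

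The nuclear receptor genes included both receptors themselves. Rara, the gene of RARα, had a pair of members within its first 10 kb and no RARβ peak within 10 kb of its start (chromosome 11, 98927800 to 98974942). The first, 8.02 kb downstream, had RARα scores of 86.0 and 147 and RXRα scores of 106 and 109, and the second, 5.57 kb downstream, had RARα scores of 125 and 64.1 and RXRα scores of 154 and 84.1. At Rxra, a member of 4942 bp covered the start region (chromosome 2, 27673261 to 27678202), with a RARα score of 54.7 under the control diet and 245 under RA, RXRα scores of 160 and 254, and a RARβ peak 0.974 kb away. In all, 3 of 31 nuclear receptor genes had a member, or 9.68% (3.35 to 24.9), against 4.39% of all genes.

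Of the 20 RAR targets, 2 had a member, or 10% (2.79 to 30.1), against 4.39% of all genes. Rara was among them, and neither of the 2 had a RARβ peak within 10 kb. Over all genes, 1.5% had a member and no such RARβ peak. Cyp26a1 and Rarb, which encode an enzyme that degrades RA and RARβ itself, had no member within 10 kb.

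Complement and coagulation genes had 2 of 19, or 10.5% (2.94 to 31.4), against 4.39% of all genes. Both had a pair of members and no RARβ peak within 10 kb. A member and no such RARβ peak were found at 1.5% of all genes. C9 encodes the last component of the membrane attack complex. Its member at the start had RARα scores of 117 and 184 and RXRα scores of 109 and 170 (chromosome 15, 6444957 to 6445570), and the nearest RARβ peak was 58.0 kb from it. The other, 9.37 kb upstream, had RARα scores of 132 and 185 and RXRα scores of 119 and 123. F5 encodes coagulation factor V. Its member at the start had RARα scores of 173 and 192 and RXRα scores of 155 and 85.4 (chromosome 1, 164151215 to 164153478), and its nearest RARβ peak was 9.42 kb away from the region.

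Genes of xenobiotic metabolism had 3 of 20, or 15% (5.24 to 36.0), against 4.39% of all genes. RARβ was called elsewhere within 10 kb of each of the 3. At Ugt2b5, a glucuronosyltransferase gene, RARα scores were 109 and 198 and RXRα scores 199 and 185. At Cyp3a11, a cytochrome P450 gene known as a target of PXR, the member of 4584 bp had RARα scores of 78.0 and 196 and RXRα scores of 104 and 174, and a RARβ peak lay 0.522 kb away. At Ephx1, the epoxide hydrolase gene, RARα scores were 210 and 247 and RXRα scores 57.3 and 80.1. RARα scored higher under RA at all 3, where 71.6% of the members and 67.9% of all regions called for RARα under both diets did so. The scores are unscaled between libraries.

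Some bile acid, lipoprotein, carbohydrate and amino acid genes also had a member. Slc10a1, the bile acid uptake transporter, and Apoc2, the activator of lipoprotein lipase, were 2 of 20 LXR and FXR targets. Gys2, liver glycogen synthase, was among the 2 of 20 glucose metabolism genes, and Sds, serine dehydratase, was 1 of 20 urea cycle and amino acid genes. The share was 10% (2.79 to 30.1) in the first 2 lists and 5% (0.888 to 23.6) in the last. Over all genes it was 4.39%. The Gys2 member had RARα scores of 86.3 and 166 and RXRα scores of 221 and 232, with a RARβ peak 0.416 kb away. All 5 genes with a member in these lists also had a RARβ peak within 10 kb of the start.

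No member lay within 10 kb of any of the 20 PPARα targets, the 20 cholesterol synthesis genes or the 20 splicing and mRNA processing genes, which allows a share of up to 16.1% (Wilson) in each. Of 97 genes with symbols of the Rpl or Rps type, 8 had a member, or 8.25% (4.24 to 15.4), against 4.39% of all genes. Of the 8, 0 had one within 1 kb, and all had a RARβ peak within 10 kb of the start. Rps6kc1 among them is a kinase-like gene and no ribosomal protein gene. The members near Rpl27 and Rpl28 covered annotated starts of Ifi35 and Tmem238. Rpl37a led the 8, with RARα scores of 178 and 353 and RXRα scores of 180 and 262 at 7.80 kb from its start. For the 40 proteasome genes, 4 had a member, or 10% (3.96 to 23.1), and again 0 within 1 kb. All 4 had a RARβ peak within 10 kb of the start. Psma1 was in the lead, at RARα scores of 171 and 89.7 and RXRα scores of 97.1 and 74.99. Of 49 complex I genes, Ndufb11, at its start, and Ndufv1 had one, or 4.08% (1.13 to 13.7). At Ndufb11 the RARα scores were 240 and 293, the RXRα scores 59.3 and 111, and the nearest RARβ peak was 44.4 kb away.

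**Figure D5:**
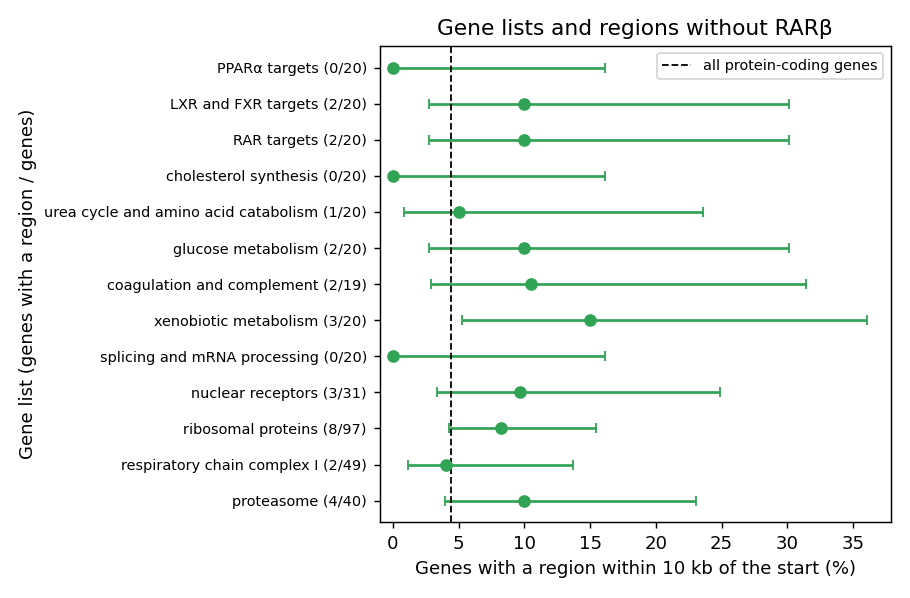
Share of the genes of 13 lists that had a member within 10 kb of the start, with Wilson 95% intervals; the dashed line is the share over all protein-coding genes, 4.39%. With 0 to 8 genes per list, the intervals are wide; the highest share is that of xenobiotic metabolism, 3 of 20.

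Sequence was also not used by the rule. In 247 promoter windows of 300 bases (250 before and 50 after a start), from 226 genes, the whole window lay inside a member. They were set beside 1203 windows inside regions with RARβ under RA only, 5555 windows inside regions with RARβ under both diets, and all 21263 windows of protein-coding genes. The median share of G and C bases was 60% in the members' windows, 60% with RARβ under RA only, 62.3% with RARβ under both diets and 56.3% over all windows.

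At least 1 of the 4 half-sites stood in 48.2% (42.0 to 54.4) of the members' windows, in 47.6% (44.8 to 50.5) with RARβ under RA only, in 37.6% (36.3 to 38.9) with RARβ under both diets, and in 41.2% of all windows. AGGTCA alone was found in 15.8% (11.8 to 20.9), 17.4% (15.3 to 19.6), 12.03% (11.2 to 12.9) and 14.7%, respectively. A direct repeat of 2 half-sites with 0 to 8 bases between them was present in 1 of the 247 windows, the one of Slc7a7, or 0.405% (0.0715 to 2.26), against 0.800% of all windows. Both strands were searched, and a direct repeat contains half-sites that were also counted singly. Windows of the same gene can overlap, as at Mup-ps12, and the intervals count each window as separate. Of 243 windows inside regions of RARα alone under both diets, 29.6% (24.2 to 35.7) held at least 1 half-site. The share was 57.8% (47.5 to 67.5) of 90 windows inside regions of RXRα alone under both diets. These exact letters are only part of what the receptors bind.

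The ETS-type motif CCGGAA was found in 17.0% (12.8 to 22.2) of the members' windows. It was found in 28.01% (25.5 to 30.6) with RARβ under RA only, in 36.3% (35.0 to 37.5) with RARβ under both diets and in 18.7% of all windows. The GC box GGGCGG was present in 59.5% (53.3 to 65.4), 59.8% (57.0 to 62.5), 70.8% (69.6 to 71.9) and 46.2%. CCAAT was present in 33.2% (27.6 to 39.3), 36.2%, 41.8% and 38.2%, and TATAAA in 6.07% (3.71 to 9.78), 7.98%, 5.56% and 12.6%. The E-box CACGTG was present in 8.50% (5.63 to 12.6), 9.98%, 11.6% and 7.84%. GCGCATGC, the core of the NRF1 site, was present in 6.48% (4.03 to 10.3), 5.07%, 7.22% and 3.52%. The members' share of CCGGAA was thus near that of all windows and below that of both classes with RARβ. In the other regions without RARβ, the share of CCGGAA was 19.3% (14.9 to 24.8) for RARα alone and 12.2% (6.96 to 20.6) for RXRα alone. A share below those of the RARβ classes was therefore not particular to the members. The median number of CG dinucleotides, which this motif contains, was 17 in the members' windows, 19 with RARβ under RA only, 23 with RARβ under both diets and 13 over all windows, and its part in the difference was not tested. A wider region is more likely to hold a whole window, and the members were narrower than both classes with RARβ. These are matches of letters and not bound sites, and no p-value is given because windows are not replicates.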

How the data were processed

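Livers were profiled by ChIP-seq in 6 libraries, 1 per receptor and diet, and the input library was not used here. Reads were 35 bp long. Per the study's methods, reads were aligned to mm10 with Bowtie and peaks were called with MACS. The study reports ChIP-seq of RXRα and RARα and none of RARβ, so the same processing was assumed for the RARβ lists. The deposited score of each peak was taken as that caller's value, unscaled between libraries. A deeper library can give a longer list and higher scores; read totals per list were not used here, so depth and binding cannot be told apart.

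Peaks were merged with Python 3.11.15 and pandas 2.3.3, and the code was tested on simulated peaks. Gene spans came from RefSeq (GRCm38.p6), strands from its promoter table for 17492 genes and by symbol from GENCODE M1 for 4044, giving 21536 of 21900 protein-coding genes. Windows of chromosome 18 were not used. A region was assigned by its midpoint within 1 or 10 kb of the outermost start. Wilson 95% intervals used SciPy 1.17.1.

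The members, gene lists and comparisons were chosen with earlier results of these data known. Named were the 15 members with the highest and the 5 with the lowest value of the lowest percentile over 4 lists, and up to 4 genes with a member per list. Some of the genes that this rule names are not reported here.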

Additional observations from a re-analysis of the deposited data

Results flagged for a closer look

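The median score ratio of RA to control in the members was 1.29 for RARα and 0.973 for RXRα. It was picked out because it was above 1 for one receptor and below 1 for the other. Over all regions called under both diets, both medians were above 1, at 1.21 and 1.03. This difference was not tested, since each receptor has 1 library per diet and the scores are not scaled between libraries.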

How the results depend on the processing

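No paired analysis was possible because each receptor and diet has 1 library. The rule depends on the lists and their thresholds. With scores of at least 100 in every list, 31.2% of the regions that met the rule lay within 1 kb and 48.0% within 10 kb of a start. In this setting, 23.0% of the regions of 4 lists had no RARβ. With lists of equal length, 116 regions met the rule, 17.2% within 1 kb and 44.0% within 10 kb, and the share without RARβ was 6.39%. Of the regions that met the rule in these settings, 406 and 30 overlapped a member of the full lists. There were 7061 members when only RARβ scores of at least 100 counted, 5021 without the RARα control requirement and 8303 without excluding RARβ under RA. With starts of all gene kinds, 15.05% lay within 1 kb and 42.4% within 10 kb, and with every start of the promoter table, an alternative chosen after seeing the data, 27.8% lay within 10 kb. Within 1 kb, 307 genes and 7 of the listed genes had a member, and 324 and 5 had one with no RARβ peak within 10 kb. With AGGTCA alone, 0 of the members' windows held a direct repeat. Of 55 alternative values, 21 stayed near the first value and 34 moved, and the cause of each move was not tested. Peak scores depend on library depth, which was not analysed here.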
